A study of Mus musculus with 2 samples.

Results

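The expression of 10 genes of the neuromuscular junction was followed in medullary thymic epithelial cells (mTEC), the cells of the thymus that display antigens of other tissues to developing T cells. They were taken by name from the transcript tables, and all 10 were found among 23411 genes listed in both tables. They are the muscle acetylcholine receptor subunit genes Chrna1, Chrnb1, Chrnd, Chrne and Chrng, the receptor anchor gene Rapsn, and the genes Agrn, Lrp4, Musk and Dok7 of the agrin pathway. Poly-A RNA was compared between 1 library of MHC-II high mTEC and 1 library of MHC-II low mTEC. Both fractions were sorted by cytometry from one pool of 3 B6 mice, with no treatment and no genotype difference named in the labels, and their age is not stated in the sources used here. The series title names the deacetylase Sirt1 and the transcription regulator Aire, but both libraries came from B6 mice and none from a mutant.

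At the junction the nerve releases acetylcholine, and the muscle receptor that binds it is built from alpha, beta and delta subunits with either a gamma or an epsilon subunit. Gamma belongs to the fetal receptor, and epsilon takes its place after birth. Agrin from the nerve binds Lrp4 on the muscle, which activates the kinase MuSK. Dok7 acts on MuSK from inside the cell, and rapsyn, the product of Rapsn, clusters the receptors. In myasthenia gravis, autoantibodies bind the receptor, MuSK, Lrp4 or agrin. The thymus is tied to that disease, and thymic epithelium is one of the places where T cells can meet these proteins.

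The proximal promoters of Chrne, Chrng and Musk, which differed between the fractions beyond 2-fold, are shown first, beside that of Chrna1, which did not. Myogenic factors are known to bind E-boxes (CANNTG), and factors of the GABP type bind the N-box (CCGGAA) of synaptic genes. The sequences are the 250 bases before the transcription start, from RefSeq on GRCm38.p6, with E-boxes and the N-box in capitals. Both motifs were searched on both strands. An E-box reads the same on either strand, and no E-box overlapped an N-box.
Chrne (chr11:70619195-70619444, minus strand): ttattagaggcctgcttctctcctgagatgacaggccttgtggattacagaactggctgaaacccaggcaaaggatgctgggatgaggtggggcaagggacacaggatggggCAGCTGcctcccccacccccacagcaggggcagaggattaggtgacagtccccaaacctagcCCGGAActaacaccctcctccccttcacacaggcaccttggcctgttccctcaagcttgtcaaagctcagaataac
Chrng (chr1:87205561-87205810, plus strand): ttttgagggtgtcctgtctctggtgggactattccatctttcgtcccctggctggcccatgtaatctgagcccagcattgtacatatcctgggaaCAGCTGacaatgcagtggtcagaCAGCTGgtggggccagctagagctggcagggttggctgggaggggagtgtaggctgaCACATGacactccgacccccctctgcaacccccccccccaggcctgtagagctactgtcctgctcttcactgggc
Musk (chr4:58285712-58285961, plus strand): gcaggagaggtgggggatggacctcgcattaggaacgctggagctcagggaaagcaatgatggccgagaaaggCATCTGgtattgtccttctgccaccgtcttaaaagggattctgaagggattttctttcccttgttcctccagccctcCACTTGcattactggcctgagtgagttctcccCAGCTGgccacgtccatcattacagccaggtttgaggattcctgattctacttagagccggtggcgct
Chrna1 (chr2:73580339-73580588, minus strand): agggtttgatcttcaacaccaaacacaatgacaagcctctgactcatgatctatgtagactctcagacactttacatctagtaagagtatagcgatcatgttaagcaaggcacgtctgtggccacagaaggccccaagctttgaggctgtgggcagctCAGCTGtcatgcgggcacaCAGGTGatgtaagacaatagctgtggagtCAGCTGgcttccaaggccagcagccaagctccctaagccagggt
The Chrng window held 3 E-boxes, starting 155, 132 and 75 bases before the start, and the first of them and the next were CAGCTG. Chrna1 also held 3, at 92, 73 and 44 bases, of which the first and last were CAGCTG. Musk held 3 as well, with CAGCTG at 68 bases. Chrne held 1 E-box, a CAGCTG at 138 bases, and 1 N-box at 76 bases. Of the 2 windows of Agrn, the other gene that differed, 1 held an E-box. A promoter entry was found for 7 of the 10 members, in 9 windows, and for none of Chrnd, Rapsn and Lrp4. CAGCTG was in 4 of the 9 windows, against 13.0% of 32851 promoter windows of the same length. Those 4 are the windows shown. The windows not shown, of Agrn and of the uncalled genes Chrnb1 and Dok7, held none, so the shown windows do not stand for all 9. The N-box was in 1 of the 9 windows and in 12.0% of all windows, while any E-box was in 7 of the 9 and in 66.2% of all. These matches are descriptions of letters, and binding was not measured.

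The libraries held 138368535 reads on genes for MHC-II high and 56077479 for MHC-II low mTEC. Levels are given as CPM, read counts scaled by a library total that TMM, a method that lines up the bulk of the genes, had corrected. A difference between genes of unequal length is given only in CPM per kilobase of transcript. With 1 library a group there is no replicate check. Each ratio, taken as MHC-II high over MHC-II low, therefore has an exact 95% interval of the reads that covers counting error only, and a gene was called when its whole interval lay beyond 2-fold. Of 17438 genes with a mean of at least 1 CPM, 14.5% were called higher and 10.9% lower. Among epithelial markers, Epcam was at 621 against 586 CPM and Aire at 571 against 21.0 CPM. In bulk RNA, fewer cells of a type and less RNA per cell cannot be told apart.

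All 10 members had reads in both libraries and passed the expression minimum, and 2 were called higher and 2 lower in MHC-II high mTEC. Chrne and Chrng, the epsilon and gamma subunit genes, were higher, and Agrn and Musk were lower. These shares of the 10 are near those of all genes (14.5% and 10.9%), so the counts alone do not set the members apart. The median log2 ratio of the members was 0.37, against −0.01 for all genes past the minimum. Chrne passed the minimum only through the MHC-II high library and Rapsn only through the MHC-II low library.

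**Figure D1:**
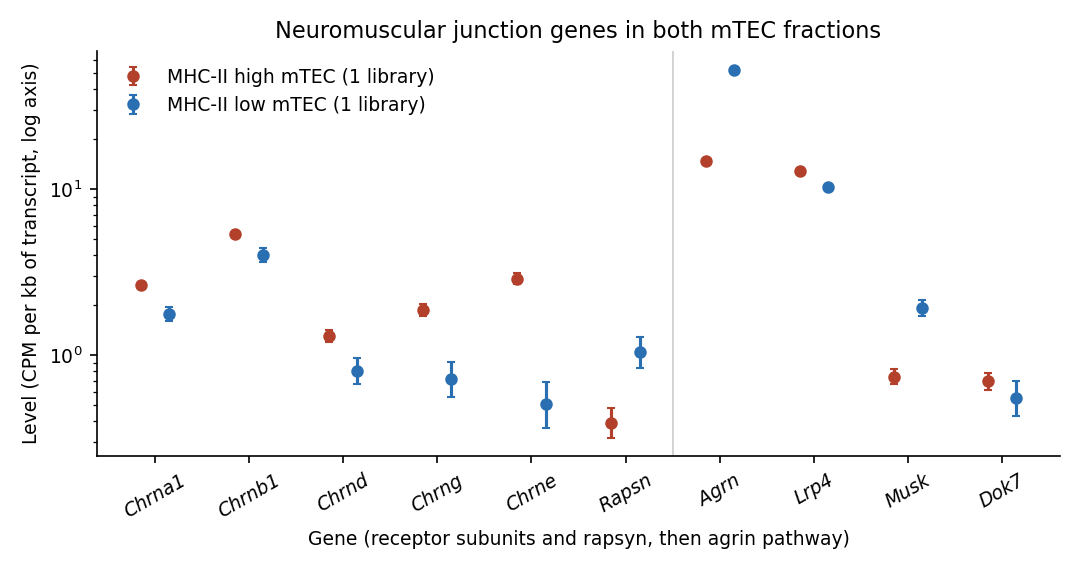
Level of each junction gene (CPM per kb of transcript, log axis) in MHC-II high and MHC-II low mTEC, 1 library each; bars are exact 95% Poisson intervals of the reads. Chrne stands at 2.90 against 0.508 CPM per kb and Agrn at 14.8 against 52.2 CPM per kb.

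Chrne, the adult subunit gene (NM_009603), showed the widest difference of the 10. It had 705 reads or 4.61 CPM in MHC-II high mTEC and 41 reads or 0.808 CPM in MHC-II low mTEC. This was a 5.71-fold higher level (interval 4.17 to 8.03), and the ratio exceeded those of 96.2% of the tested genes. Ranked by level per kilobase among all genes, Chrne stood at the 47.1 percentile of the MHC-II high library and the 25.1 percentile of the MHC-II low one. On GRCm38 it overlaps 4930544D05Rik on the other strand, which had 23 and 2 reads. The kit did not keep strand, so reads in the overlap cannot be assigned. Chrna1, Rapsn and Agrn also overlap annotated genes, which were not among the genes counted, so the same limit holds for them.

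Chrng, the fetal subunit gene (NM_009604), had 552 reads or 3.61 CPM in MHC-II high mTEC and 70 reads or 1.38 CPM in MHC-II low mTEC. It was 2.62-fold higher, with a lower limit of 2.04 that lies just past the threshold and an upper limit of 3.41. Both subunit genes that exchange with each other during development were thus higher in the same fraction.

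The 3 subunit genes shared by fetal and adult receptors had ratios under 2-fold and were not called. Chrna1, which encodes the alpha subunit with the acetylcholine site and the main region bound by patient antibodies, had 1735 reads or 11.4 CPM against 387 reads or 7.62 CPM. Its ratio was 1.49 (interval 1.33 to 1.67). Chrnb1, the beta subunit gene, had 1764 reads or 11.5 CPM against 437 reads or 8.61 CPM, a ratio of 1.34 (1.21 to 1.49). Chrnd, the delta subunit gene, had 580 reads or 3.79 CPM against 119 reads or 2.34 CPM, a ratio of 1.62 (1.33 to 1.99). All 3 intervals lie above 1 and below 2, so their levels in MHC-II high mTEC were higher beyond counting error but short of the threshold.

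A comparison inside each library does not depend on the scaling between them. Per kilobase, Chrng made up 39.3% of the sum of Chrng and Chrne in MHC-II high mTEC (exact 95% interval 36.7 to 42.1) and 58.6% in MHC-II low mTEC (48.7 to 68.1). The ratio of epsilon to gamma reads was 2.18-fold higher in MHC-II high mTEC (1.44 to 3.34). Per kilobase, epsilon reads thus outnumbered gamma reads in the MHC-II high library, while in the MHC-II low library the interval of the gamma share reached below an even split.

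Of the 5 subunits per kilobase, Chrne held 20.6% in MHC-II high and 6.50% in MHC-II low mTEC, and Chrng 13.3% and 9.19%. Chrnb1 was the most abundant subunit in both, with 38.1% and 51.3%. Chrna1 held 18.8% and 22.8%, and Chrnd 9.25% and 10.3%. Among all 10 pairs of subunits, 7 had an interval of their ratio between libraries that left out 1, and each of these 7 included Chrne or Chrng. Chrne against Chrna1 was 3.83-fold higher in MHC-II high mTEC (2.74 to 5.49), and Chrng against Chrna1 1.76-fold (1.33 to 2.34). The other 3 pairs, among Chrna1, Chrnb1 and Chrnd, gave ratios of 0.900 for Chrnb1 against Chrna1 (0.771 to 1.05), 1.09 for Chrnd against Chrna1 (0.864 to 1.38) and 0.828 for Chrnb1 against Chrnd (0.657 to 1.04). These intervals were not adjusted for the number of pairs.

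**Figure D2:**
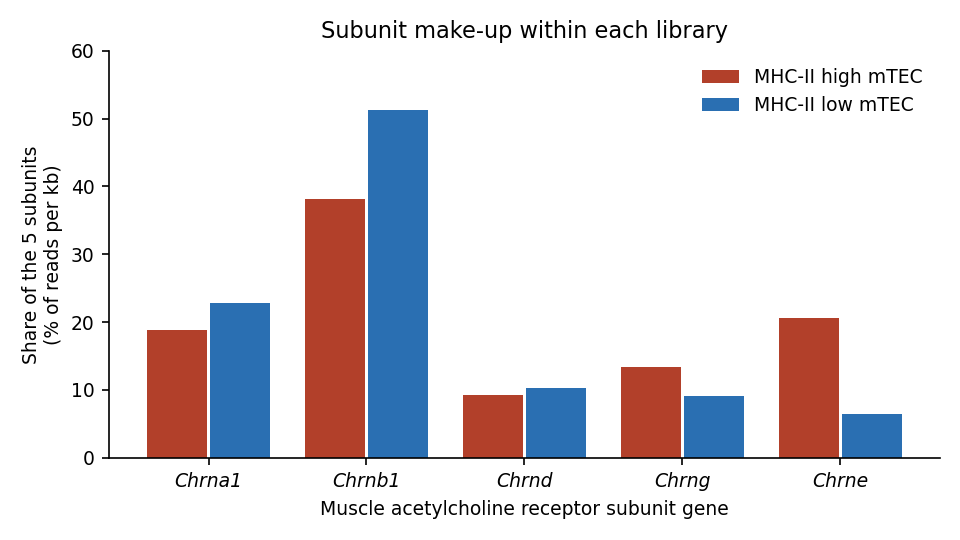
Share of each receptor subunit gene in the summed reads per kb of the 5 subunits (% on the y axis), within the MHC-II high and the MHC-II low library. The epsilon gene Chrne takes 20.6% against 6.50%, while Chrnb1 is the tallest bar in both libraries.

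Rapsn, which encodes the scaffold that anchors the receptor, did not follow the subunits. It had 97 reads or 0.635 CPM in MHC-II high mTEC and 86 reads or 1.69 CPM in MHC-II low mTEC. The level was 2.67-fold lower in MHC-II high mTEC, but the interval of 1.97 to 3.61 reached just inside 2-fold and the gene was not called. Relative to Rapsn, Chrna1 was 3.97-fold higher in MHC-II high mTEC (2.87 to 5.48). Summed over both libraries, Rapsn had the fewest reads of the 10 members.

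Agrn, the gene of the proteoglycan agrin (NM_021604), had the largest difference in the other direction. It had 16744 reads or 109.6 CPM in MHC-II high mTEC and 19566 reads or 385.4 CPM in MHC-II low mTEC, a 3.52-fold lower level (interval 3.45 to 3.59). It was the most abundant member per kilobase in both libraries and stood at the 77.7 percentile of all genes in MHC-II high and the 94.0 percentile in MHC-II low mTEC. Agrin is also made outside nerves, as a part of basement membranes. All 8 endothelial markers were lower in MHC-II high mTEC as well, summing to 58.1 against 480 CPM, and 5 of 8 fibroblast and mural markers, summing to 425 against 1262 CPM. The basal keratin genes Krt5 and Krt14 were at 768 against 5863 CPM and 293 against 2306 CPM. These were the 2 called lower of 10 mTEC markers, of which 6 were called higher, with a median log2 ratio of 1.65. None of these markers was at 0 reads, and their part in the difference of Agrn was not tested.

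Lrp4, the gene of the agrin receptor, was the second most abundant member per kilobase and differed little. It had 15840 reads or 103.6 CPM in MHC-II high mTEC and 4222 reads or 83.2 CPM in MHC-II low mTEC, a ratio of 1.25 (interval 1.20 to 1.29). The ratio of Lrp4 to Agrn was 4.38-fold higher in MHC-II high mTEC (4.21 to 4.56). Per kilobase Agrn exceeded Lrp4 by 1.15-fold in the MHC-II high and by 5.04-fold in the MHC-II low library. A shorter listed transcript (NM_001145857), which shares reads with the full one, was at 10.04 against 11.2 CPM, a ratio of 0.897 (0.814 to 0.990).

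Musk, the gene of the kinase, had 389 reads or 2.55 CPM in MHC-II high mTEC and 336 reads or 6.62 CPM in MHC-II low mTEC. It was 2.60-fold lower (interval 2.24 to 3.02). The table listed 6 transcripts. The 5 longer ones held identical reads, and the short one (NM_001165996) was at 1.13 against 3.90 CPM, 3.45-fold lower (2.80 to 4.25). With unscaled read totals Musk was 2.13-fold lower with a lower limit of 1.84 and was no longer called, which left 1 member lower (7.35% of all genes under that scaling) and 2 higher (19.8%). All 8 endothelial markers and 5 of the 8 fibroblast and mural markers were lower here too, while Pdgfrb and Rgs5 of the second list were at 40.8 against 23.3 CPM and 235 against 175 CPM and were not called. Their part was not tested.

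Dok7, the gene of the adaptor that activates MuSK, had 264 reads or 1.73 CPM in MHC-II high mTEC and 70 reads or 1.38 CPM in MHC-II low mTEC. Its ratio of 1.25 had an interval of 0.959 to 1.65 that held 1. Under other scalings the interval lay above 1, at 1.04 to 1.79 with DESeq2 size factors, 1.17 to 2.02 with unscaled totals and 1.92 to 3.32 with the totals behind the deposited RPKM, and none of these called the gene. Relative to Musk it was 3.25-fold higher in MHC-II high mTEC (2.39 to 4.47), while relative to Lrp4 the ratio was 1.01 (0.768 to 1.33).

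**Figure D3:**
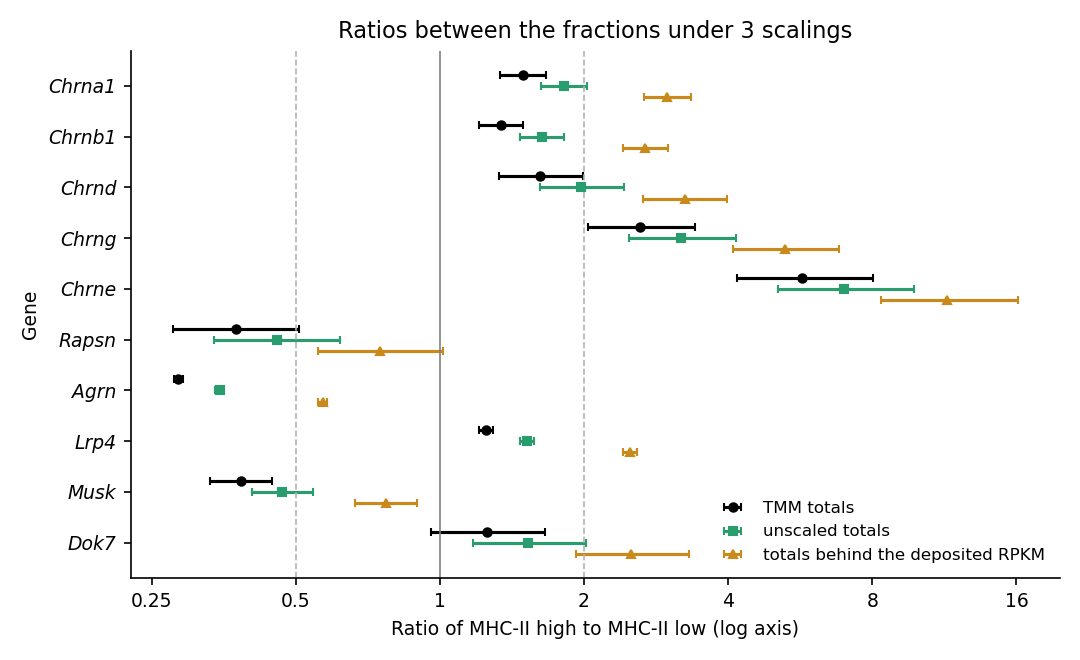
Ratio of the MHC-II high over the MHC-II low level for each junction gene (log axis) with exact 95% intervals of the reads, under 3 scalings of the libraries; dashed lines mark 2-fold. Chrne and Chrng lie right of 2 and Agrn and Musk left of 1 under all 3 scalings, while Musk and Agrn leave the range beyond 2-fold with the totals behind the deposited RPKM.

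The read totals behind the deposited RPKM values place every ratio higher, moving the median of all tested genes to 0.99 on the log2 scale. With them Chrna1, Chrnb1, Chrnd and Lrp4 were also called higher, giving 6 called of 8 members past the minimum against 45.2% of all genes, and 0 called lower against 2.94%. Chrne was then 11.4-fold and Chrng 5.25-fold higher. Agrn was 1.76-fold lower (interval 1.72 to 1.79) and Musk 1.30-fold lower (1.12 to 1.51), and neither was called. The direction of each member's ratio was the same under every scaling run. For Rapsn, however, the interval under the RPKM totals held 1, at 1.33-fold lower (0.985 to 1.80).

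By level per kilobase, the order in MHC-II high mTEC was Agrn, Lrp4, Chrnb1, Chrne, Chrna1, Chrng, Chrnd, Musk, Dok7 and Rapsn. There Musk and Dok7 were not separated beyond counting error, with a ratio of 1.07 (0.912 to 1.25), and Chrne exceeded Chrna1 by 1.10-fold with a lower limit of 1.002. In MHC-II low mTEC the order was Agrn, Lrp4, Chrnb1, Musk, Chrna1, Rapsn, Chrnd, Chrng, Dok7 and Chrne. Musk and Chrna1 were not separated there beyond counting error (1.09, interval 0.937 to 1.26), nor were neighbours in the order from Rapsn down to Chrne, where each interval of the step held 1. Chrne thus ranked 4 of 10 in MHC-II high mTEC and 10 of 10 in MHC-II low mTEC.

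The genes on either side of each member, in RefSeq order, were read as well. Chrne lies between Mink1 and Gp1ba, whose log2 ratios were 0.50 and −0.03 against 2.51 for Chrne. Chrnd and Chrng are neighbours, with log2 ratios of 0.70 and 1.39. On their outer sides Prss56 was at 1.75, though under the expression minimum with 1.26 against 0.374 CPM, and Eif4e2 at 0.47. Chrna1, at 0.57, lies between Wipf1 and Chn1os3, which were at 0.05 and 0.07.

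Musk lies between 2 genes that were lower in MHC-II high mTEC, Svep1 at −2.32 and Lpar1 at −2.00, against −1.38 for Musk. Next to Agrn, at −1.81, Isg15 was at −2.36 and Rnf223 at 0.16. The neighbours of Rapsn, Celf1 and Psmc3, were at 0.42 and −0.51, against −1.42 for Rapsn. Lrp4 had 1110051M20Rik at −0.54 and Ckap5 at 0.82 beside it, Dok7 had Hgfac at −0.76 and Lrpap1 at −1.13, and Chrnb1 had Zbtb4 at −1.06 and Fgf11 at −0.50.

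**Figure D4:**
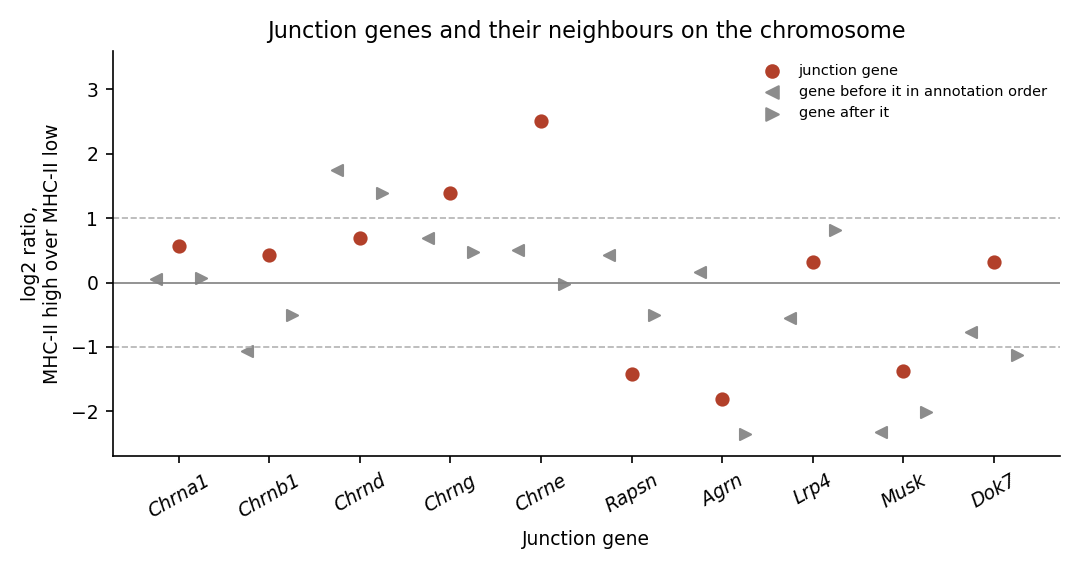
log2 ratio of MHC-II high over MHC-II low (y axis) for each junction gene and for the gene before and after it in annotation order; dashed lines mark 2-fold. Chrne, at 2.51, stands above both neighbours, while Musk lies above 2 neighbours that are lower still.

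Neuronal nicotinic receptor subunits are the closest relatives of the muscle subunits. Of 11 such genes, 10 passed the minimum, 6 were higher and 1 lower in MHC-II high mTEC, with a median log2 ratio of 1.61 against 0.37 for the junction genes. For this list and those below, the shares of all genes called higher and lower are 14.5% and 10.9%. With unscaled totals those shares are 19.8% and 7.35%, and with the RPKM totals 45.2% and 2.94%. Chrna5 was at 23.5 against 2.11 CPM, 11.2-fold higher (interval 9.22 to 13.7), and Chrna10, a subunit of hair cell receptors, at 30.04 against 9.65 CPM, 3.11-fold higher (2.83 to 3.42). Chrnb3 went the other way, at 0.275 against 2.74 CPM, and passed the minimum only through the MHC-II low library. With 1 library a group, the difference between the lists was not tested.

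Of 22 genes of the synaptic matrix and the dystroglycan complex, 1 was higher and 9 lower, with a median log2 ratio of −0.75 that turned to 0.25, with 5 higher and 2 lower, under the RPKM totals. The gene that was higher was Ache, whose enzyme breaks down acetylcholine in the cleft. It had 50820 reads or 332.5 CPM in MHC-II high mTEC and 1674 reads or 33.0 CPM in MHC-II low mTEC, a 10.1-fold higher level (9.61 to 10.6). Colq, which tethers the enzyme to the matrix, was at 164 against 151 CPM and was chosen after its values were seen. Plec was at 255 against 416 CPM and was not called. As given for Agrn, all 8 endothelial and 5 of 8 fibroblast and mural markers were lower in MHC-II high mTEC too, and their part was not tested.

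None of 25 genes named in MuSK signalling was called in either direction, and their median of −0.20 turned to 0.09 with 1 higher under unscaled totals and to 0.80 with 6 higher under the RPKM totals. Macf1 and Rhoa, with the most reads, were at 295 against 316 CPM and 237 against 287 CPM. Abl1 and Vangl2 had the lowest ratios, at 0.487 (0.474 to 0.501) and 0.505 (0.464 to 0.550). Of 6 neuregulin and ErbB genes, Nrg1, whose product raises receptor expression in muscle, was 3.39-fold higher (3.08 to 3.74). Erbb4 was lower, at 0.550 against 1.79 CPM, and passed the minimum only through the MHC-II low library. The list's calls became 2 higher and 0 lower with unscaled totals, and 4 higher and 0 lower with the RPKM totals, where 4 of its genes passed the minimum. The 5 glycosylation enzyme genes of congenital myasthenia held no call (1 higher under the RPKM totals), and Gfpt1 was at 176 against 117 CPM.

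Of 14 nerve terminal genes, 4 were higher and 2 lower (4 and 0 under unscaled, 6 and 0 under RPKM totals), and the median was 0.38. Kcna2 was 3.09-fold higher (2.83 to 3.38) and the calcium channel gene Cacna1b 2.85-fold (2.70 to 3.01). Pclo was at 46.2 against 74.7 CPM. Other muscle autoantigens of myasthenia were measured in 9 genes, of which 8 passed the minimum and none was called, against 2 higher with unscaled and 5 with RPKM totals. Ttn was at 122 against 85.0 CPM, and Tnni2 at 3.32 against 1.497 CPM.

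Genes of muscle itself did not all go with the receptor subunits. Of 13 myogenic regulator genes, 10 passed the minimum. The calls were 1 higher and 2 lower (1 and 0 under unscaled, 3 and 0 under RPKM totals). The median log2 ratio of −0.14 turned to 0.14 under unscaled and 0.998 under RPKM totals. The regulator gene Myog was at 11.1 against 28.8 CPM and was lower, and the satellite cell factor gene Pax7 was 4.43-fold higher (3.56 to 5.58). Of 18 muscle fibre genes, 6 were higher and 4 lower (6 and 1 under unscaled, 10 and 0 under RPKM totals), and the median was 0.43. The embryonic myosin gene Myh3 was 16.6-fold higher (13.6 to 20.5) and Myh4 13.1-fold, while Des was at 48.4 against 101 CPM and was lower. The 7 skeletal muscle markers, none at 0 reads, are all drawn from these 2 lists and are not separate evidence. They held 0 higher and 3 lower (0 and 0 under unscaled, 2 and 0 under RPKM totals) and summed to 91.5 against 177 CPM. The calls of Myog and Des as lower were thus not kept with unscaled totals. None of the 6 muscle fibre genes called higher is among them, and the 18 muscle fibre genes summed to 483 against 301 CPM. Of that sum, Actn3 alone, the gene of the list with the most reads, held 239 against 91.9 CPM.

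**Figure D5:**
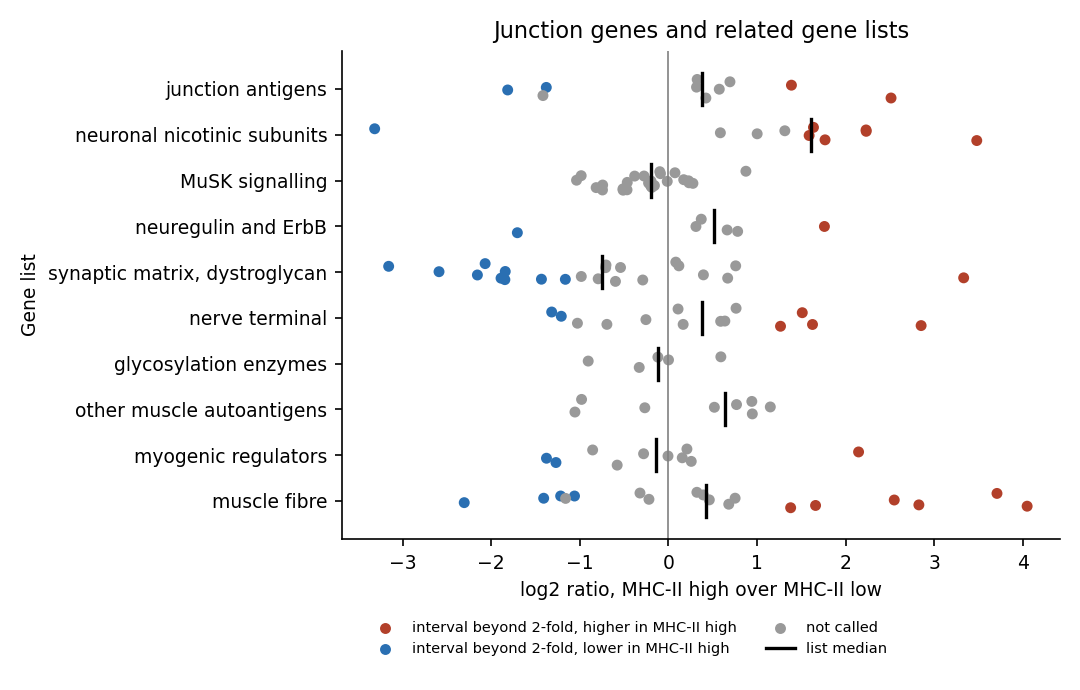
log2 ratio of MHC-II high over MHC-II low (x axis) for the junction genes and 9 related gene lists, 1 point for each gene past the expression minimum; black bars are list medians and colours mark calls. The neuronal nicotinic subunits have a median of 1.61, the synaptic matrix genes one of −0.75, and the MuSK signalling genes hold no call; the last 2 medians turn positive under the RPKM totals.

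Over the 9 related lists, 118 of 123 genes passed the minimum, of which 19 were higher and 19 lower, with a median log2 ratio of −0.05 that was 0.27 under unscaled and 0.95 under RPKM totals. Dendritic cell and macrophage markers were split. Of 7 measured, 6 passed the minimum, with 4 higher and 0 lower, and the list summed to 44.7 against 16.4 CPM. Itgax, at a ratio of 0.597 (0.491 to 0.728), and Clec9a, at 0.511 (0.380 to 0.692), lay on the side away from Chrne and Chrng. Siglech, under the minimum, was at 0.794 (0.573 to 1.11). For all marker lists, calls were counted among genes past the minimum. B cell markers held 2 higher of 5 and summed to 30.1 against 24.1 CPM, thymocyte markers 1 higher and 2 lower of 9 with 44.9 against 66.5 CPM, and Schwann cell and neural markers 0 higher and 1 lower of 7 with 46.3 against 76.2 CPM. Erythroid markers held 3 lower of 5, with 70.4 against 2628 CPM. The part of these cells in the values of the junction genes was not tested.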

How the data were processed

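Per the labels' protocols, MHC-II high and MHC-II low mTEC were sorted from a pool of 3 mice, and poly-A libraries were made with a kit that does not keep strand. The submitters' processing notes name mm9, CASAVA, Bowtie 1.0.0 and bedtools, with settings not given in the sources used here. For each RefSeq transcript the deposited tables held, per the file headers, a read count, a length and an RPKM value. Isoforms each held the reads they share.

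Stray read records (18 and 36 lines) were left out, genomic copies of a transcript were summed, and 29800 accessions with the same length in both tables were used. The RefSeq table of GRCm38.p6 named 29233 and GENCODE vM21 another 173. A single transcript stood for each gene, the one with the most reads over both tables (the longest where tied). TMM factors came from edgeR 4.0.16 over genes with a mean of at least 1 CPM. Intervals of ratios were exact Clopper-Pearson limits in scipy 1.17.1, and those of the pairs of genes were exact conditional limits. PCR reads without molecular identifiers are not independent molecules. The procedure was checked on simulated data with counting error only, the error that the intervals assume. That check therefore says nothing of variation between libraries. Scaling (with DESeq2 1.42.0 as one alternative), transcript choice, expression minimum and fold threshold were varied.

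Named genes were all members, their neighbours, and for each related list the 2 genes with the most reads and the 2 with the largest ratio. The members and lists were chosen with earlier results of these data known. The pairs of subunits beyond Chrne and Chrng, and the other pairs of genes, were chosen after their values were seen, 17 pairs in all. Some genes that the rule would name are not reported here.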

Additional observations from a re-analysis of the deposited data

How the results depend on the processing

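The ratio of each member kept its direction under 6 alternatives of scaling and transcript choice (60 values). Some intervals of Dok7, and that of Rapsn with the RPKM totals, held 1. The call, which asks the whole interval to lie beyond 2-fold, was the same for 53, was made only under an alternative for 4 and was lost for 3. The losses were Musk with unscaled totals (−1.09) and Musk (−0.38) and Agrn (−0.81) with the totals behind the deposited RPKM, since those totals raise all log2 ratios by 0.29 and 1.003. With unscaled totals 1 member was called lower and the members' median was 0.66, and with the RPKM totals 6 were called higher, 0 lower, and the median was 1.501. DESeq2 size factors gave a median of 0.49, as did TMM over all genes, an alternative chosen after seeing the data. With a minimum of 5 CPM 4 members were left, of which 0 were higher and 1 was lower. Chrne, Chrng and Musk fell under that minimum with unchanged ratios, and the share of all genes called at it is not given here. Over the related lists (19 higher, 19 lower), 9 were lower with unscaled totals, against 7.35% of all genes. With the RPKM totals 48 were higher and 2 lower, against 45.2% and 2.94% of all genes. Beyond 1.5-fold 30 were higher and 34 lower, and the share of all genes at that threshold is not given here. Without division by length, Chrng was 43.9% of Chrng plus Chrne in MHC-II high mTEC and 63.1% in MHC-II low mTEC (53.4 to 72.0, which leaves out an even split, unlike the interval per kilobase). Rapsn, at 97 and 86 reads, and Chrne in the MHC-II low library, at 41 reads, are limited by depth. No paired analysis was possible because each group has 1 library and the labels give no replicate numbers, and for the same reason no library could be left out.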
